A study of Rattus norvegicus with 20 samples.

Results

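The comparison described here is that of sustained Wnt3a with no stimulus in cultured neural stem cells of the adult hippocampus, taken from the Fisher 344 rat strain. It comprises 6 of the 20 libraries of the series. The 2 Wnt3a libraries came from cells carrying optoWnt that received 100 ng/mL of recombinant ligand, without interruption, for 3 d in one case and 5 d in the other. The 4 unstimulated libraries had no inducer by their labels and came from wild-type and optoWnt cells, 1 of each genotype at 3 d and 1 of each at 5 d. Libraries were assigned by the well named in their labels, and the counts of the table are by well. All cells were kept in a basal medium with the N-2 supplement and a little serum. OptoWnt is a light-driven activator of the Wnt pathway that was introduced into the cells at low multiplicity and kept by puromycin selection. Both Wnt3a libraries carry it, and the controls are of both genotypes, so genotype was a term of each model. The titles of the 4 control libraries also hold the word ON, and the labels do not say whether those cells saw light. The models also held 3 other optoWnt libraries, CHIR99021 at 3 d and 5 d (dosed at 3 mM, as the labels have it) and constant light at 3 d. The CHIR99021 pair adds to the estimates of the spread and of the day term, so it also bears on the fold changes fitted for each day. The single light library has a term of its own and bears only on the filter and the scaling.

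Wnt3a is a secreted lipid-modified ligand that binds a Frizzled receptor together with an LRP co-receptor. Binding halts the destruction complex that marks β-catenin for degradation, and stabilised β-catenin then enters the nucleus and switches on genes with TCF/LEF proteins. In the adult hippocampus this pathway is known for its part in keeping stem cells and in the formation of neurons from them. The table gives genes by Ensembl ID without symbols, so the transcripts below cannot be assigned to the pathway, and neither the stem cell identity nor the presence of other cell types could be checked against marker genes.

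The 6 libraries held between 2062454 reads (wild-type 5 d) and 5935681 reads (optoWnt 3 d), with 4969526 reads for Wnt3a 3 d and 2692446 for Wnt3a 5 d. Levels are given in CPM, reads of a gene per 1e6 reads of a library total scaled by TMM, a method that puts libraries on a common scale. A count of 0 allowed up to 1.55 CPM in the shallowest of the 6 libraries and 0.512 CPM in the deepest. Counts were of 3′ ends and do not grow with transcript length. On the first principal component of all 20 libraries, which held 29.4% of the variance, Wnt3a 5 d had the lowest score of all (-109.8) and wild-type 5 d scored -76.2, whereas Wnt3a 3 d and the other 3 controls scored between 14 and 34.6. Each combination of day, genotype and inducer was sequenced once, and the labels do not say whether libraries came from separate cultures, so p-values measure only the spread between these libraries.

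Over both days together, a single transcript was called. By edgeR's quasi-likelihood test with Benjamini-Hochberg adjustment over 12406 genes, 1 gene was higher under sustained Wnt3a and 0 were lower at an adjusted p under 0.05 (0.00806% of the genes tested were called). Of the 12406 genes, 570 had an unadjusted p under 0.05, where 5% of those tested would be 620, and DESeq2 called 35, of which 29 were higher. The median log2 fold change over all genes tested was -0.02, with quartiles of -0.54 and 0.48. In bulk libraries such as these, fewer cells of a type and less RNA per cell cannot be told apart.

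The called gene was ENSRNOG00000026053. It stood at 37.9 CPM in Wnt3a 3 d and 149.9 CPM in Wnt3a 5 d, against 2.00 CPM in wild-type 3 d, 0.683 CPM in optoWnt 3 d, 4.13 CPM in wild-type 5 d and 3.31 CPM in optoWnt 5 d. Both Wnt3a values lay far above all 4 controls. The means were 93.9 ± 79.2 CPM under Wnt3a (SD, n = 2) and 2.53 ± 1.51 CPM without stimulus (SD, n = 4), and the fitted log2 fold change was 5.48 (SE 0.59, edgeR adjusted p = 0.048). The direction was the same in every fit tried, with log2 fold changes from 5.09 to 6.05. With 1 library of the model left out, it was called only without optoWnt 5 d (3 calls in all) or without Wnt3a 3 d (4 calls). It was not called without light 3 d, either CHIR99021 library, either wild-type control, optoWnt 3 d or Wnt3a 5 d (edgeR adjusted p from 0.0655 to 0.293), and the 1 call made without Wnt3a 5 d was another gene. In the cells at 0 d it had 0 reads in both genotypes.

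Among genes of at least 5 CPM whose groups did not overlap, the others with the largest fold changes were not called by edgeR. ENSRNOG00000048651 stood at 6.97 CPM in Wnt3a 3 d and 33.6 CPM in Wnt3a 5 d, against 0.499 CPM in wild-type 3 d, 0.341 CPM in optoWnt 3 d, 0 reads in wild-type 5 d and 0.255 CPM in optoWnt 5 d. The Wnt3a arm held 119 reads of it and the 4 controls held 5 in all, so that the groups did not overlap (log2 fold change 5.58, SE 1.05, edgeR adjusted p = 0.32, DESeq2 adjusted p = 0.00059). ENSRNOG00000016558 was the more abundant of the pair with the lowest fold changes, at 132 CPM in Wnt3a 3 d and 109 CPM in Wnt3a 5 d, against 252, 739, 181 and 626 CPM in wild-type 3 d, optoWnt 3 d, wild-type 5 d and optoWnt 5 d. Its Wnt3a values lay under all 4 controls, nearer the wild-type than the optoWnt ones (log2 fold change -2.55, SE 0.54, edgeR adjusted p = 0.55, DESeq2 adjusted p = 0.0034). ENSRNOG00000010263 stood at 2.20 and 0.415 CPM in Wnt3a 3 d and 5 d, against 12.7, 9.73, 11.9 and 6.88 CPM in the same 4 controls. Its groups were apart as well, but a single read stood behind the Wnt3a 5 d value (log2 fold change -2.69, SE 0.83, edgeR adjusted p = 0.91).

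**Figure D1:**
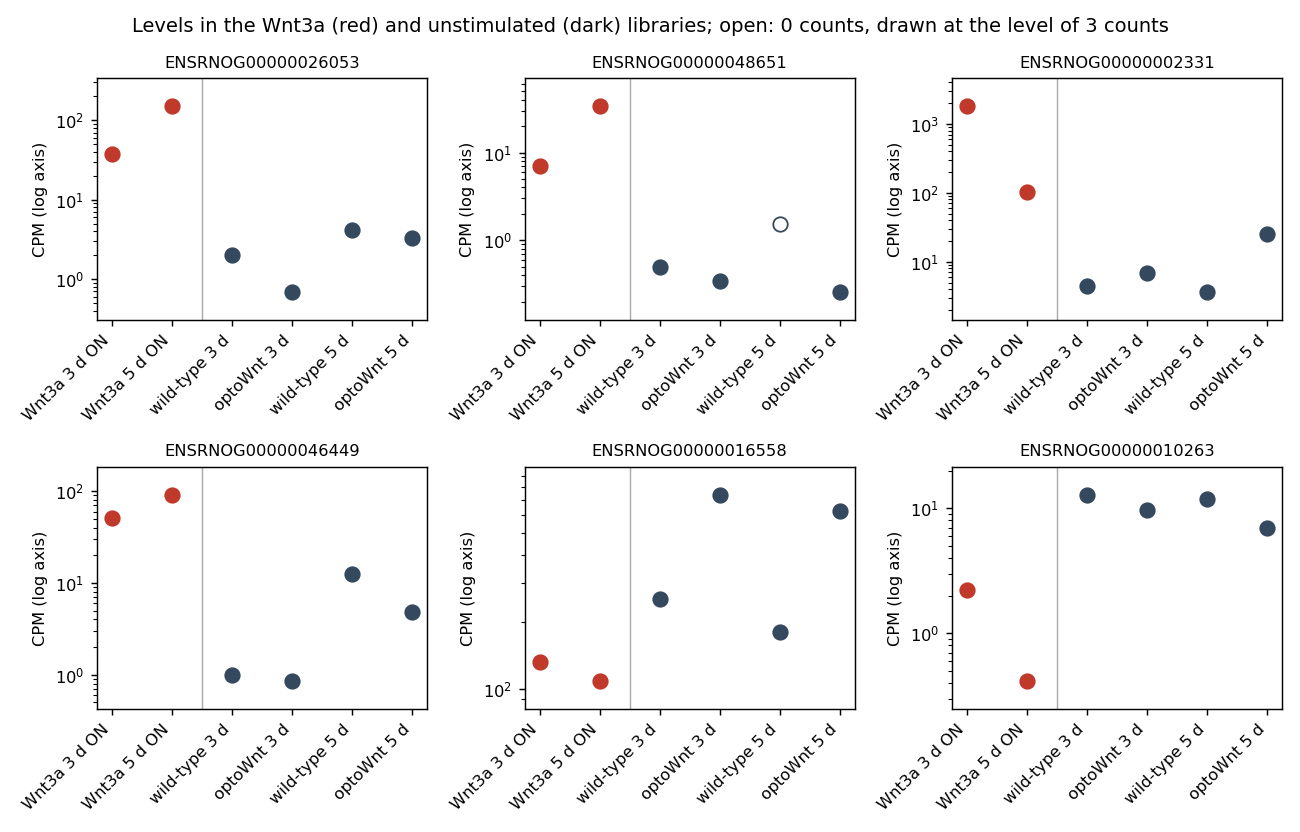
Each panel plots the CPM of a transcript on a log axis in both Wnt3a libraries (red, left) and the 4 unstimulated libraries (dark, right), with an open circle where no read was found, drawn at the level of 3 counts. ENSRNOG00000026053 lies at 37.9 CPM or more under Wnt3a and at 4.13 CPM or less without it. The Wnt3a values of ENSRNOG00000016558 lie under all 4 controls, nearer the wild-type than the optoWnt ones.

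Without a test, the separation of both Wnt3a libraries from all 4 controls can be counted. Of the 12406 genes tested, 610 were higher in both Wnt3a libraries than in every control (4.92%) and 544 were lower in both (4.38%). Of the 9637 whose level averaged 5 CPM or more over the arms, 408 were higher (4.23%) and 466 were lower (4.84%). With so few libraries some genes separate by rank alone, and their share was not estimated. These counts therefore do not by themselves show an effect of Wnt3a. With a margin of at least 2-fold, 29 were higher (0.301%) and 6 were lower (0.0623%). These genes were chosen by this contrast, so their own fold changes are a description: fitted log2 fold changes ran from 1.11 to 5.58 among the 29, with a median of 2.88, and from -2.69 to -1.68 among the 6. The margin just inside the limit was 2.06-fold and the one just outside 1.97-fold. Of the 29, 21 were higher at 5 d than at 3 d of Wnt3a, 7 of them by at least 2-fold, and 4 were at least 2-fold higher at 3 d. Leaving out a library removes a condition of the choice, so these counts could hardly do other than rise. Without wild-type 5 d they were 48 and 23, without wild-type 3 d 33 and 12, and without optoWnt 3 d 31 and 11. Without optoWnt 5 d they were 42 and 8. Without Wnt3a 5 d they were 81 and 62, and without Wnt3a 3 d 831 and 858, each resting on a single Wnt3a library.

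Libraries that had no part in choosing the 29 place these levels. Their median level was 27.3 CPM in Wnt3a 3 d and 47.3 CPM in Wnt3a 5 d, against 3.25, 2.73, 3.62 and 4.84 CPM in wild-type 3 d, optoWnt 3 d, wild-type 5 d and optoWnt 5 d. After only 1 d of Wnt3a the median was 4.20 CPM, which in that shallow library (696463 reads) is the level of 3 counts. After 1 d of ligand followed by withdrawal it was 13.3 CPM at 1 d OFF and 8.34 CPM at 2 d OFF, between the sustained and the unstimulated values. The choice of the genes set these values apart, so a median between them is a description and no test. After withdrawal of CHIR99021 the median was 14.6 CPM at 1 d OFF and 9.53 CPM at 2 d OFF, and after withdrawal of light 2.45 and 3.96 CPM. Under constant CHIR99021, an inhibitor of the kinase that marks β-catenin, the median was 31.3 CPM at 3 d and 25.3 CPM at 5 d, and under constant light at 3 d it was 12.8 CPM. Cells at 0 d stood at 2.88 CPM (wild-type) and 4.25 CPM (optoWnt).

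**Figure D2:**
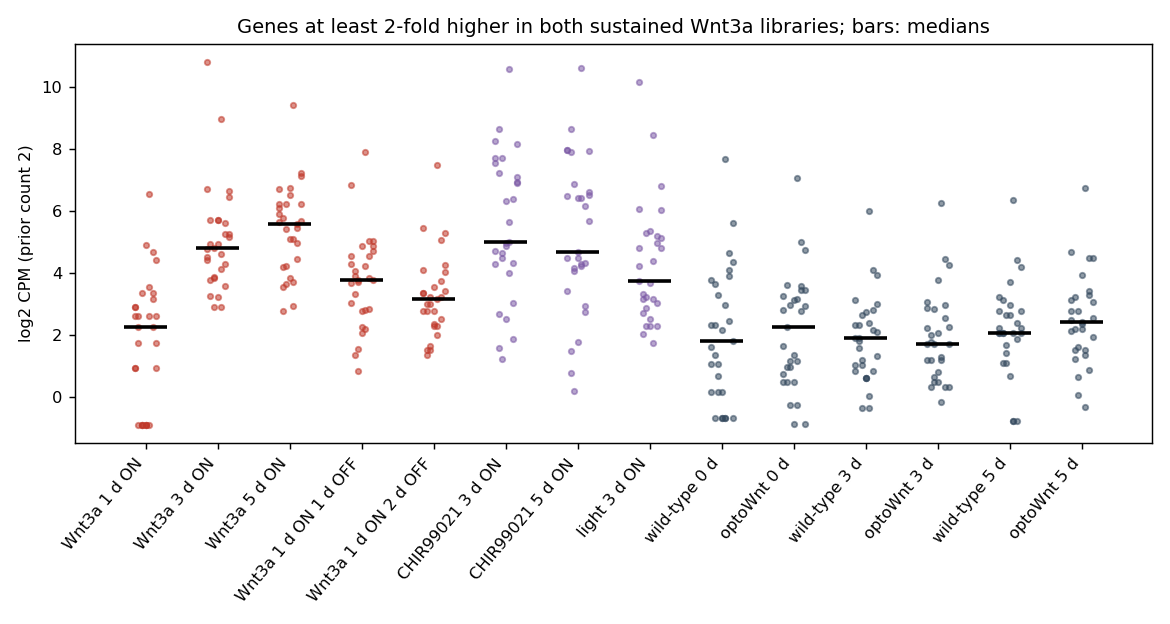
Each dot is 1 of the 29 genes at least 2-fold higher in both sustained Wnt3a libraries than in all 4 controls, on the log2 CPM scale, in the Wnt3a libraries (red), the sustained CHIR99021 and light libraries (purple) and the unstimulated ones (dark), with bars at the medians. The Wnt3a 3 d and 5 d and the 4 control columns served to choose the genes, and of the remaining columns CHIR99021 lies highest, at a median of 31.3 and 25.3 CPM.

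At 3 d alone, the Wnt3a library was close to one of its controls. With 1 library against 2, edgeR called 1 gene higher and 0 lower (0.00806% of 12406), and 284 had an unadjusted p under 0.05, while DESeq2 called 13, all higher. This fit takes the spread of the single Wnt3a library to be that of the rest and had 2 residual degrees of freedom. Its day term also drew on the 5 d controls and the CHIR99021 pair, so fitted fold changes need not equal the ratios of the CPM values. Of the 9603 genes with at least 5 CPM in either library, 5.89% were at least 2-fold apart between Wnt3a 3 d and wild-type 3 d. Between Wnt3a 3 d and optoWnt 3 d 24.2% of 9754 were apart, and between the controls optoWnt 3 d and wild-type 3 d 13.9% of 9610. The Wnt3a library thus differed from the wild-type control in fewer genes than both controls differed from each other. The SD of log2 differences across genes was 0.53, 0.87 and 0.66 in the same order, and with at least 50 CPM the shares were 2.58%, 23.5% and 12.3%.

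ENSRNOG00000002331 was the transcript called at 3 d. It stood at 1795 CPM in Wnt3a 3 d, against 4.49 CPM in wild-type 3 d and 6.83 CPM in optoWnt 3 d (log2 fold change 7.16, SE 0.80, edgeR adjusted p = 0.043). At 5 d it stood at 104 CPM under Wnt3a, against 3.62 CPM in wild-type 5 d and 24.98 CPM in optoWnt 5 d, above both controls but far below the 3 d value. In other Wnt3a libraries it was at 7.0 CPM after 1 d (5 reads), 114 CPM after 1 d ON and 1 d OFF and 16.7 CPM after 2 d OFF. The call was lost without light 3 d, either CHIR99021 library or optoWnt 3 d (edgeR adjusted p from 0.10 to 0.25), though the log2 fold change stayed between 5.86 and 8.02 in all fits. The count of genes called at 3 d was 12 with optoWnt 5 d left out, 38 with wild-type 3 d and 41 with wild-type 5 d left out, each with 1 residual degree of freedom.

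ENSRNOG00000046449 was next in size at 3 d, at 51.5 CPM in Wnt3a 3 d, against 0.999 CPM in wild-type 3 d and 0.854 CPM in optoWnt 3 d (log2 fold change 5.31, SE 0.99, edgeR adjusted p = 0.37, DESeq2 adjusted p = 0.00042). At 5 d it was again above both controls, with 90.9 CPM under Wnt3a, against 12.4 CPM in wild-type 5 d and 4.84 CPM in optoWnt 5 d. Those with the lowest fold changes at 3 d rest on few reads. ENSRNOG00000054091 had 1 read in Wnt3a 3 d, against 3.25 CPM in wild-type 3 d and 6.83 CPM in optoWnt 3 d, a ratio of 0.0341 (exact 95% counting interval 0.000848 to 0.198, edgeR adjusted p = 1.00). ENSRNOG00000011228 had 2 reads in Wnt3a 3 d, against 2.00 CPM in wild-type 3 d and 10.4 CPM in optoWnt 3 d, a ratio of 0.0524 (counting interval 0.00622 to 0.197, edgeR adjusted p = 1.00), and its optoWnt value stood well above the wild-type one. Neither was lower than both controls at 5 d.

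At 5 d alone, 2-fold differences between single libraries were more frequent than at 3 d, both between Wnt3a and each control and between the controls. EdgeR called 1 gene higher and 0 lower (0.00806% of 12406), and that gene was again ENSRNOG00000026053 (log2 fold change 5.72, SE 0.62, edgeR adjusted p = 0.033). Its call at 5 d was lost without optoWnt 3 d, light 3 d or either CHIR99021 library (edgeR adjusted p from 0.076 to 0.35), and 4 genes were called without Wnt3a 3 d. An unadjusted p under 0.05 was reached by 2218 genes, 777 higher and 1441 lower, and DESeq2 called 539 of the 8557 to which it gave an adjusted p, of which 138 were higher. Of 10108 genes, 40.1% were at least 2-fold apart between Wnt3a 5 d and wild-type 5 d, and of 10271 genes 50.7% between Wnt3a 5 d and optoWnt 5 d. Between the controls optoWnt 5 d and wild-type 5 d the share was 39.9% of 10226 genes, about that of Wnt3a 5 d against wild-type 5 d. With at least 50 CPM the shares were 33.0%, 48.9% and 34.3% in the same order.

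**Figure D3:**
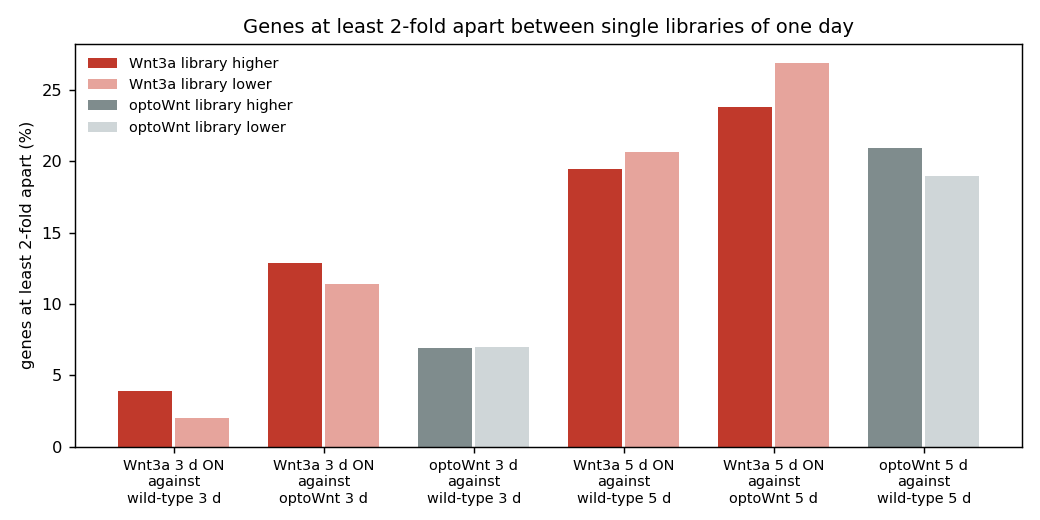
Bars give the percentage of genes, among those with at least 5 CPM, that were at least 2-fold higher (dark) or lower (pale) in the first than in the second library of each pair, with pairs that hold a Wnt3a library in red and pairs of controls in grey. With both bars of a pair added, the share apart from wild-type was 5.89% for Wnt3a 3 d and 13.9% for optoWnt 3 d, and at 5 d it was 40.1% for Wnt3a and 39.9% for optoWnt.

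ENSRNOG00000013859 and ENSRNOG00000048651 had the highest fitted log2 fold changes at 5 d (7.52 and 6.59) among genes of at least 5 CPM and 2-fold beyond both controls. At counts this low, fitted values depend on the prior count and on the terms of the model, and are no bound. With no genotype term they were 4.67 for ENSRNOG00000013859 and 6.60 for ENSRNOG00000048651. ENSRNOG00000048651 had 81 reads in Wnt3a 5 d and 1 read in both controls together, a ratio of 197 (95% counting interval 34.4 to 7878, edgeR adjusted p = 0.12). ENSRNOG00000013859 had 16 reads in Wnt3a 5 d (6.64 CPM), against 2 in wild-type 5 d (1.03 CPM) and 0 in optoWnt 5 d, a ratio of 19.5 (counting interval 4.58 to 174, edgeR adjusted p = 0.16). Both were low-count transcripts with groups that did not overlap. At 3 d ENSRNOG00000013859 had 15 reads under Wnt3a and 1 read in both controls, while constant CHIR99021 had 183 and 160 CPM at 3 d and 5 d. The fits without wild-type 3 d, wild-type 5 d or optoWnt 5 d called both (edgeR adjusted p from 2.1e-10 to 0.049), with 2401, 2432 and 30 genes called in all, and 1 residual degree of freedom.

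The lowest fold changes at 5 d came from transcripts that the controls did not share. ENSRNOG00000006019 had 0 reads in Wnt3a 5 d, against 2.07 CPM in wild-type 5 d and 43.1 CPM in optoWnt 5 d, at least 23.7-fold lower than the controls together (edgeR adjusted p = 0.16). ENSRNOG00000036451 had 0 reads in Wnt3a 5 d, against 1.03 CPM in wild-type 5 d and 24.7 CPM in optoWnt 5 d, at least 13.6-fold lower (edgeR adjusted p = 0.18). Both bounds set 3 counts in the Wnt3a library against the pooled controls. For both, the wild-type control was itself near 0, and the difference lies against optoWnt 5 d. At 3 d, Wnt3a held 32.8 CPM of ENSRNOG00000006019, against 15.2 CPM in wild-type and 34.1 CPM in optoWnt cells, a value between the controls. ENSRNOG00000036451 stood at 9.35 CPM in Wnt3a 3 d, against 21.5 CPM in wild-type 3 d and 26.1 CPM in optoWnt 3 d, below both controls at 3 d as well.

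Set side by side, the days shared few of their genes. At 3 d, 243 of 9666 genes were at least 2-fold higher in the Wnt3a library than in both controls (2.51%) and 157 were at least 2-fold lower (1.62%). At 5 d the counts were 1225 of 10224 (12%) and 1180 (11.5%). The days share no library, and 56 genes were higher at both, which is 23.0% of the 3 d list, beside the 12% of all genes that were higher at 5 d, and 4.57% of the 5 d list. Of the 243 genes higher at 3 d, 21 were at least 2-fold lower than both controls at 5 d. Lower at both were 15 genes, 9.55% of the 3 d list, beside the 11.5% of all genes that were lower at 5 d, and 1.27% of the 5 d list. In turn, 39 of the 157 genes lower at 3 d were at least 2-fold higher than both controls at 5 d. Across 9320 genes, the log2 differences of 5 d and 3 d had a Pearson's r of -0.12, with the same sign in 42.8%, a description in which genes are not independent replicates. The SD across these genes was 1.13 at 5 d and 0.62 at 3 d. The test of the difference itself, the Wnt3a effect at 5 d minus that at 3 d, called 0 of 12406 genes by edgeR (0% called, smallest adjusted p = 0.36), with 1526 at an unadjusted p under 0.05 and 88 called by DESeq2 of 5912 with an adjusted p. The edgeR count rose far above 0 with wild-type 5 d or wild-type 3 d left out, with 1 residual degree of freedom in each.

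**Figure D4:**
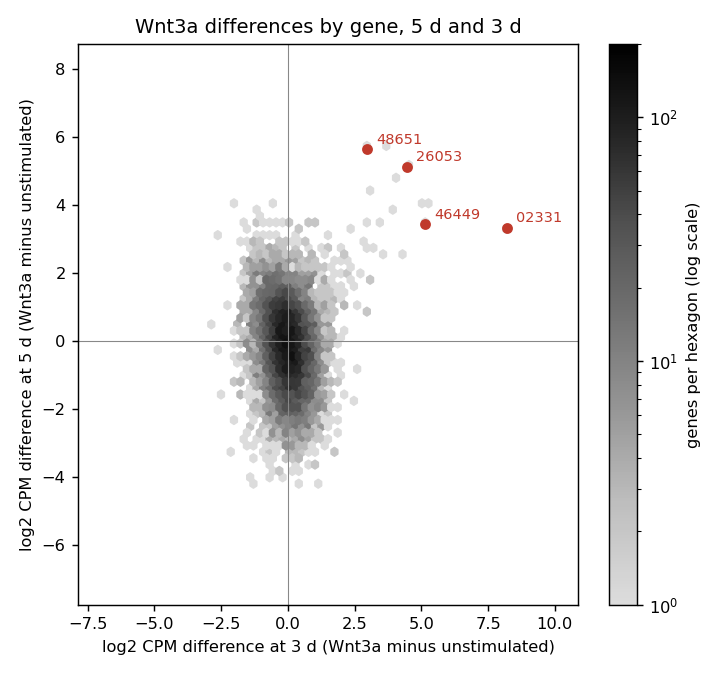
Each hexagon counts genes by their log2 CPM difference between Wnt3a and the mean of both unstimulated libraries at 3 d (horizontal) and at 5 d (vertical), and red dots mark 4 named transcripts by the end of their ID. Over the 9320 genes the cloud is wider at 5 d (SD 1.13) than at 3 d (SD 0.62) and single genes trail from it towards the 4 transcripts, which were higher on both days.

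The 3 d and the 5 d genes were followed into libraries that had no part in choosing them, each against the controls of the other day. The 243 genes higher at 3 d of Wnt3a had a median log2 difference from the unstimulated 5 d libraries of 1.32 in CHIR99021 3 d, 0.90 in CHIR99021 5 d and 0.31 in Wnt3a 5 d. In light 3 d it was -0.07. In the other Wnt3a libraries it was -0.34 after 1 d ON, 0.53 after 1 d OFF and 0.02 after 2 d OFF. Over all genes tested it lay within 0.10 of 0 in each library. For the 243 genes, the controls that form the reference lay at -0.22 (wild-type 5 d) and 0.22 (optoWnt 5 d). The 0.31 of Wnt3a 5 d was thus little beyond the controls. The 157 genes lower at 3 d had medians of -1.25 in CHIR99021 3 d, -0.49 in CHIR99021 5 d and 0.51 in light 3 d. In Wnt3a 5 d they stood at 0.41, and in the other Wnt3a libraries at -0.14 after 1 d ON, -0.67 after 1 d OFF and -0.02 after 2 d OFF. The genes lower at 3 d thus had medians below 0 under CHIR99021 on both days and in the Wnt3a library of 1 d OFF, and above 0 in Wnt3a 5 d. All these values share the unstimulated 5 d libraries.

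The 5 d genes lay farthest from the controls in libraries with low scores on the first principal component. The 1225 genes higher at 5 d had medians, against the unstimulated 3 d libraries, of 1.02 in wild-type 0 d, 0.96 in Wnt3a 2 d OFF, 0.68 in CHIR99021 2 d OFF and 0.59 in light 3 d. These 4 are the libraries outside the 5 d comparison whose first component score was -41.5 or lower. In the other 11 libraries outside the choice the medians lay between -0.27 and 0.27, and sustained CHIR99021 had -0.21 at 3 d and 0.12 at 5 d. The 1180 genes lower at 5 d mirrored this, with medians from -1.19 to -0.82 in the same 4 libraries and from -0.27 to 0.16 in the other 11. Wild-type 5 d, a control of the 5 d comparison, scored -76.2 on the component and had medians of -0.06 and -0.18. Genes with like levels in wild-type 5 d and Wnt3a 5 d could not enter these lists, so its medians are partly set by the choice. The component was computed from the same genes, and its part in the 5 d differences was not tested. A fit with the component as a covariate cannot decide this, since Wnt3a 5 d, with the lowest score, has a term of its own there.

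**Figure D5:**
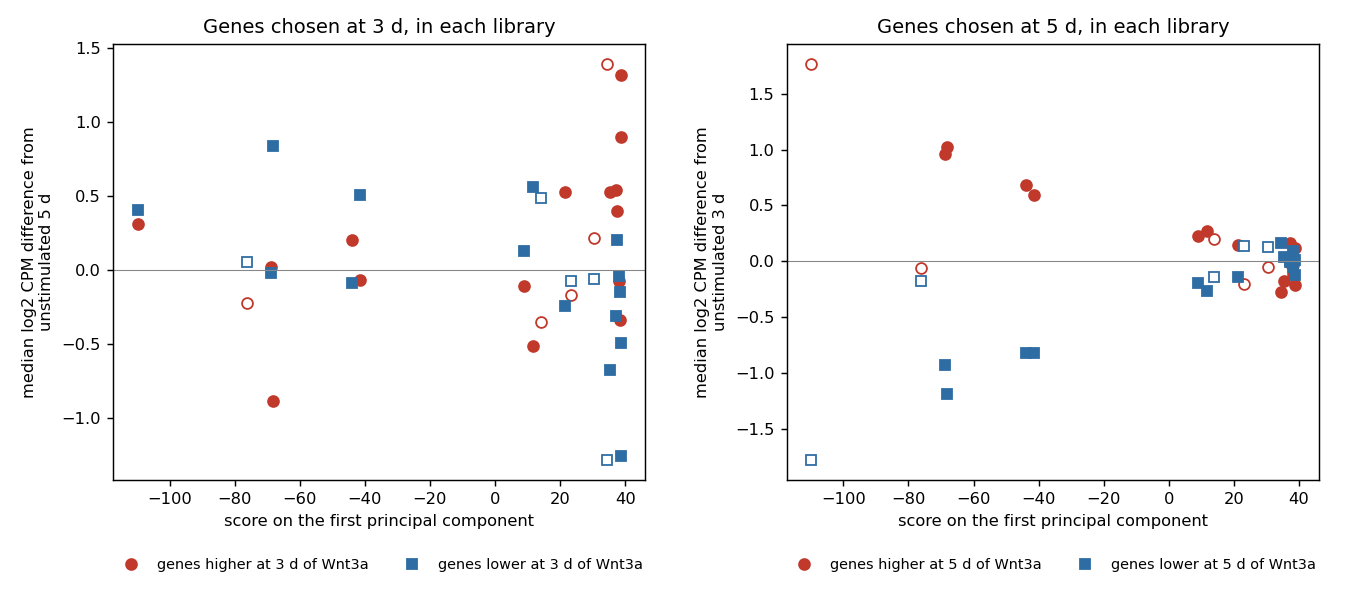
Each symbol is the median log2 CPM difference, in 1 library, of the genes higher (red circles) or lower (blue squares) by at least 2-fold at 3 d of Wnt3a (left) or 5 d (right), plotted against that library's first component score, with open symbols for libraries used in choosing the genes or as the baseline. On the left the highest filled circles are CHIR99021 3 d and 5 d (1.32 and 0.90), and on the right the 4 filled circles from 0.59 to 1.02 are the libraries with scores of -41.5 or lower.

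Genes that differed between 0 d and later unstimulated libraries were also followed under Wnt3a, since the 5 d values share no library with a choice made between 0 d and 3 d. Without stimulus, both 3 d libraries had 450 genes higher and 396 lower by 2-fold or more than both 0 d libraries. In Wnt3a 5 d the 450 stood at a median log2 difference of -0.68 from the unstimulated 5 d libraries (-0.69 from wild-type and -0.74 from optoWnt), and 72.2% of them were below, against 50.2% of all genes tested. The 396 stood at 0.79 (0.66 from wild-type and 0.91 from optoWnt), and 24.7% were below. Both sets lay on the side of the 0 d level. At 3 d of Wnt3a, sets chosen in the same way between 0 d and 5 d stood at 0.12 (611 genes higher with time) and -0.28 (453 genes lower with time), the opposite sides. These sides depended on the choice and the baseline, as given below.

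Wild-type 0 d, which entered that choice, and Wnt3a 5 d both scored low on the first component, and the part of this in the result was not tested. With the choice and the baseline restricted to optoWnt libraries, the medians in Wnt3a 5 d were -0.18 (955 genes) and 0.27 (952 genes), so most of the size was lost. Unstimulated wild-type 5 d stood at -0.14 and 0.11 on this measure, so the first set was hardly farther off in Wnt3a 5 d. Wnt3a 3 d, set against the same optoWnt 5 d library, stood at -0.33 and 0.05. Its medians thus lay on the same sides as those of Wnt3a 5 d here. Libraries with low scores under other treatments lay on the same sides against both 5 d controls, with -0.43 and 0.39 in light 3 d, -0.36 and 0.34 in Wnt3a 2 d OFF and -0.39 and 0.32 in CHIR99021 2 d OFF. Constant CHIR99021 at 5 d, with a high score, stood at -0.85 for the first set and -0.02 for the second.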

How the data were processed

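Per the labels, 20 libraries of RNA 3′ ends were made with QuantSeq from small inputs. The authors' deposited table holds raw counts of reads for 32623 Ensembl gene IDs. Bowtie2, Subread, featureCounts and the build Rnor_6.0 are named in the submitters' processing notes. The sources used here give no versions, strand setting or handling of multi-mapped reads, so reads of near-identical or overlapping genes may be misassigned. Of these IDs, 0 could be matched to a symbol, so the gene lists and cell type markers prepared by symbol were not used. No other per-sample values were present.

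The models were fitted in R 4.3.3 with edgeR 4.0.16 (limma 3.58.1) by quasi-likelihood, with TMM scaling and filterByExpr, which kept 12406 genes, on 9 libraries of 3 and 5 d, the 4 controls and the 5 with a constant stimulus. Terms were day, genotype and inducer (3 residual degrees of freedom), or with Wnt3a at 3 d and at 5 d apart (2). A gene was called at a Benjamini-Hochberg adjusted p under 0.05. Each SE is the size of the log2 fold change over the root of its F. Log2 CPM used a prior count of 2, and CPM scaling came from all 20 libraries. Raw counts of library pairs in a group differed by a chi-square per degree of freedom of 19.9 or more, so none of these pairs was the same library sequenced again. This does not tell whether the cultures were separate. The code was tested on simulated data. Intervals and floors of 3 counts cover counting error only, since no molecular identifiers are mentioned and reads need not be separate molecules. Alternatives were DESeq2 1.42.0, RLE size factors, no low-count filter, other sets of libraries, no genotype term, the first component as a covariate and each library left out.

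Transcripts were named by rule: called genes, and the 2 largest rises and falls among genes of at least 5 CPM with groups apart (sustained) or at least 2-fold beyond both controls of a day. The contrasts, sets and naming rule were chosen with earlier results of these data known.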

Additional observations from a re-analysis of the deposited data

Results flagged for a closer look

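ENSRNOG00000002331 stood at 25 CPM in optoWnt 5 d, far above the other 3 controls, and ENSRNOG00000011228 stood at 10.4 CPM in optoWnt 3 d, also far above the other 3. The 95% limit that these gaps passed is one that about 1 in 20 groups pass by its construction, and both genes were named from these data. ENSRNOG00000011228 lay below both controls at 3 d of Wnt3a and above both at 5 d (17.4 CPM, against 1.55 and 1.53 CPM), a difference between the days of 6.30 on the log2 scale (SE 2.06) that edgeR did not call (adjusted p = 0.36). In libraries outside the comparison, ENSRNOG00000026053 stood at 25.6 CPM after 1 d of Wnt3a and 1 d OFF and at 18.4 CPM after 2 d OFF, above the highest control of 4.13 CPM. ENSRNOG00000048651 stood at 4.07 CPM and 8.34 CPM in the same libraries, above the highest control of 0.499 CPM. These values were not tested.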

How the results depend on the processing

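The count of called genes depended on the fit for each comparison. Given as sustained, 3 d and 5 d, it was 35, 13 and 539 with DESeq2, 88, 21 and 873 with no low-count filter, 0, 0 and 0 with only the 6 libraries of the comparison or with all 20 libraries, 7, 0 and 0 with no genotype term, 0, 42 and 2427 without the wild-type libraries, and 0, 12 and 0 with the first component as a covariate. RLE size factors gave 2 at 3 d and 4 at 5 d. Wnt3a 5 d, wild-type 5 d and light 3 d score low on the component, and the sustained model without them gave 34. Wnt3a 3 d was then the only Wnt3a library, and the fit had 1 residual degree of freedom. Those 34 calls thus rest on 1 library at 3 d and do not describe sustained Wnt3a. The difference between the days gave 88 calls with DESeq2, 286 with no low-count filter and 1614 without the wild-type libraries, and 0 under the other settings. With 1 library left out, counts ran from 0 to 4 (sustained), 0 to 41 (3 d), 0 to 2432 (5 d) and 0 to 1614 (difference). The fits by day then have 1 residual degree of freedom, or 2 where the library left out had a term of its own (light 3 d, Wnt3a 3 d, Wnt3a 5 d). Genes 2-fold apart in both Wnt3a libraries, 29 higher and 6 lower, ran from 31 to 48 and from 8 to 23 with 1 control left out. With a Wnt3a library left out, the genes 2-fold apart in the other were 81 or 831 (higher) and 62 or 858 (lower). Leaving out a library removes a condition, so these counts could hardly fall. The following were chosen after seeing the data: with at least 50 CPM, 44 and 46 genes were higher and lower at 3 d and 514 and 438 at 5 d, and in optoWnt libraries alone the sets that change with time stood at -0.18 and 0.27. The cause of these changes was not tested. Of 216 fold changes of named transcripts under alternatives, 0 reversed, 26 lost a call and 37 gained one. These transcripts were named for large fold changes in the same libraries, so a reversal was unlikely from the start. No paired analysis was possible because the labels carry no replicate numbers. Day was a term of each fit.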

Other observations

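Of all 32623 IDs, 90 had no read in any of the 4 unstimulated libraries and at least 1 read in each Wnt3a library, with at most 14 reads in both together, and 2 of the 90 passed the filter on low counts. Conversely, 20 had no read under Wnt3a and at least 1 in each control, with at most 40 reads over the controls, and 5 of these passed the filter. At these depths, such counts do not show that a transcript was absent.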
